A study of Homo sapiens with 12 samples.

Results

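The small subunit of the cytosolic ribosome, the 40S subunit, is described here through the genes for 27 of its proteins in HEK293T, a line of human embryonic kidney cells. The members were listed by symbol (RPSA, FAU and 25 RPS genes, with RPS3A left out). No cut on a measured value was used, but the list was made with earlier results of these data known. All 27 were among the 15534 gene rows of the deposited table. All 27 also passed the minimum mean level that left 10706 genes for testing. The 40S subunit binds mRNA, scans to the start codon and reads codons. Its head and its body are joined by a flexible neck, and mRNA runs through the channel between them. Most mRNAs for ribosomal proteins begin with a C followed by a run of pyrimidines, the 5′ terminal oligopyrimidine (TOP) tract, through which their translation follows growth signalling, and they are short coding sequences that carry few ribosomes at a time. PRMT1 and PRMT4 (also named CARM1) are enzymes that methylate arginines, and ribosomal and RNA-binding proteins are among the known targets of this modification.

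Cells were treated with DMSO, the solvent control, with a PRMT1 inhibitor or with a PRMT4 inhibitor. The sources used here do not give the compounds, doses or treatment times. Lysates were separated on sucrose gradients of 10 to 50%, and for each treatment RNA was sequenced from the total input and from 3 ribosome fractions. This gave 12 libraries, 1 for each treatment and fraction, from 1 cell line and with no replicate culture. The sample titles name the fractions by 1, 2 and 3 ribosomes, and the last was read as at least 3 (called 3 or more below). The study asked whether inhibition of these enzymes altered translation.

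The unit was FPKM, which scales counted fragments to the length of the transcript and to the size of the library. Summed FPKM ran from 201967 in the DMSO input to 425444, and 1138 to 2905 of the tested genes were listed at 0, the most in the DMSO input. The smallest steps between low values put the libraries at an estimated 416972 to 570047 counted fragments. Of 11 markers of this cell line, 8 had a mean of at least 1 FPKM.

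The listed values need a caution that touches every result below. The library kit keeps the strand of the RNA, the sources used here do not give the strand setting of the counting, and the genes opposite a ribosomal protein gene were in some cases listed above it. SH3D19, which overlaps RPS3A on the other strand, averaged 24891 FPKM over the 12 libraries, while RPS3A averaged 68.0. TRAPPC4, opposite RPS25, averaged 127 FPKM against 19.9 for RPS25. ATG10, opposite RPS23, was nearly level with it, at 82.1 FPKM against 70.1. The other 5 partners with a tested symbol were listed below their member. For example, FAU averaged 31.4 FPKM against 6.20 for MRPL49 opposite it, and RPS18 averaged 72.3 against 12.8 for VPS52. In all, 9 of the 27 members overlap an exon read from the other strand (RPS6, RPS9, RPS18, RPS23, RPS25, RPS27A, RPS28, RPS29 and FAU). The 27 members together made up 0.289 to 0.977% of the summed FPKM, although ribosomal protein mRNAs are known to be abundant in dividing cells. Reads of the members' own mRNAs and reads from the other strand cannot be told apart in this table, so each value below is the one listed under the gene's name. The members also have 356 annotated pseudogenes named after them, with which reads may be shared.

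The annotated starts of the genes show the TOP tract that the group is known for. RefSeq promoter entries (GRCh38.p14) were found for 24 of the 27 members, and RPS2, RPS15A and RPS20 had no entry. The tract searched for was a C at an annotated start followed on the gene's strand by at least 4 more bases that were each C or T, so at least 5 in all. It was present in 18 of the 24 members (75%), in 7.73% of the 8639 tested genes with an entry and in 4.07% of all 35116 start windows. The 6 members without it were RPS4X, RPS7, RPS15, RPS26, RPS28 and RPS29. RPS19 and RPS27A have several annotated starts and were counted by the one with the tract. The windows below run from 10 bases before the start to the 20th base of the transcript, in the direction of the gene, with the tract in capitals. The first 4 belong to members with values far toward light fractions, the next 4 to other members with a tract, and the last 4 to members with none at their annotated start.
RPS27 (chr1:153990752-153990781, plus strand): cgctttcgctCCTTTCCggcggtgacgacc
RPS18 (chr6:33272065-33272094, plus strand): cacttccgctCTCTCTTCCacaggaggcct
RPS24 (chr10:78033853-78033882, plus strand): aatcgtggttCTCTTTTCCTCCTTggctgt
RPS12 (chr6:132814559-132814588, plus strand): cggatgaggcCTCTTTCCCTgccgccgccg
FAU (chr11:65122115-65122144, minus strand): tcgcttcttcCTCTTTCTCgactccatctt
RPS10 (chr6:34426050-34426079, minus strand): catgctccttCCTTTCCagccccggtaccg
RPS13 (chr11:17077648-17077677, minus strand): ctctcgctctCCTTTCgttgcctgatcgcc
RPS19 (chr19:41860245-41860274, plus strand): ccccgtcgttCCCTTTCCCCTggctggcag
RPS15 (chr19:1438386-1438415, plus strand): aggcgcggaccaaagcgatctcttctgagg
RPS26 (chr12:56041908-56041937, plus strand): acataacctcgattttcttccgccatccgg
RPS4X (chrX:72277229-72277258, minus strand): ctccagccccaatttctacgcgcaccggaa
RPS7 (chr2:3575250-3575279, plus strand): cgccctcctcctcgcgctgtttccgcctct
The longest tract among those printed, 14 bases, is that of RPS24, and the shortest, 6 bases, is that of RPS13.

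The first question was at what level the 27 genes were listed and in which library. Their mean levels over the 12 libraries had a median of 67.5 FPKM, against 6.0 for all tested genes, and spanned 18.7-fold. RPS15, a head protein with a tail that reaches toward the decoding site, was highest at 338 ± 145 FPKM (SD over 12 libraries that differ in treatment and fraction). RPS13, a body protein, followed at 215 ± 90.0, RPS2, which lines the mRNA entry channel, at 191 ± 238, and RPS19, a head protein mutated in Diamond-Blackfan anaemia, at 167 ± 83.0. The lowest were RPS27, a zinc-finger protein of the body, at 18.1 ± 27.8, RPS7, a body protein, at 18.2 ± 7.17, RPS25, a head protein that some viral RNAs need to start translation, at 19.9 ± 16.0 and RPS24, a body protein also mutated in Diamond-Blackfan anaemia, at 22 ± 29.3. In the order of mean levels, each of the 26 pairs of neighbours had overlapping ranges over the 12 libraries, so the order is one of means and not of separate levels.

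RPS15 was listed at 149, 379, 451 and 285 FPKM for the DMSO input and with 1, 2 and 3 or more ribosomes. The same series read 207, 571, 527 and 356 with the PRMT1 inhibitor and 88.2, 355, 402 and 288 with the PRMT4 inhibitor. All 9 ribosome libraries of RPS15 lay above all 3 of its inputs. RPS13 was listed at 70.0, 367, 252 and 191 FPKM with DMSO, at 104, 284, 279 and 238 with the PRMT1 inhibitor and at 132, 315, 155 and 188 with the PRMT4 inhibitor. For RPS13, too, the ribosome libraries lay above every input. RPS19 stood at 21.6, 216, 118 and 105 FPKM with DMSO, at 205, 280, 248 and 276 with the PRMT1 inhibitor and at 68.1, 118, 194 and 150 with the PRMT4 inhibitor, so its PRMT1 inhibitor input reached the level of ribosome fractions while the other 2 inputs were low.

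RPS2 behaved unlike the other abundant members. It was listed at 260, 149, 106 and 42.4 FPKM with DMSO, at 134, 229, 136 and 67.8 with the PRMT1 inhibitor and at 62.2, 916, 135 and 52.7 with the PRMT4 inhibitor. Its highest value, in the PRMT4 inhibitor fraction with 1 ribosome, was the highest value of any member in any library. In each of the 3 gradients it was highest with 1 ribosome and lowest with 3 or more.

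The lowest members were listed at 0 in some libraries. RPS27 was listed at 0, 27.3, 23.1 and 0 FPKM with DMSO, at 0, 19.95, 26.4 and 5.98 with the PRMT1 inhibitor and at 6.18, 99.6, 8.26 and 0 with the PRMT4 inhibitor. RPS24 was listed at 0, 59.6, 20.7 and 12.3, at 0, 99.8, 18.2 and 12.6 and at 5.38, 21.5, 13.9 and 0 in the same order, and RPS25 at 0, 36.9, 14.1 and 10.9, at 0, 55.9, 31.0 and 16.6 and at 10.9, 28.4, 19.3 and 14.7. For all 3 the highest value of each gradient was with 1 ribosome, except RPS27 with the PRMT1 inhibitor, which was highest with 2. RPS7 was never at 0, at 7.43, 21.2, 9.32 and 23.5 FPKM, at 22.1, 27.6, 27.1 and 25.7 and at 15.3, 11.6, 12.7 and 14.6. RPS26 and FAU were each at 0 in 1 library, which makes 5 members with a 0 somewhere. At these levels a member had a median of about 24.7 estimated fragments per library, from 4.31 for RPS27 to 93.8 for RPS15, and 5 members had under 10.

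**Figure D1:**
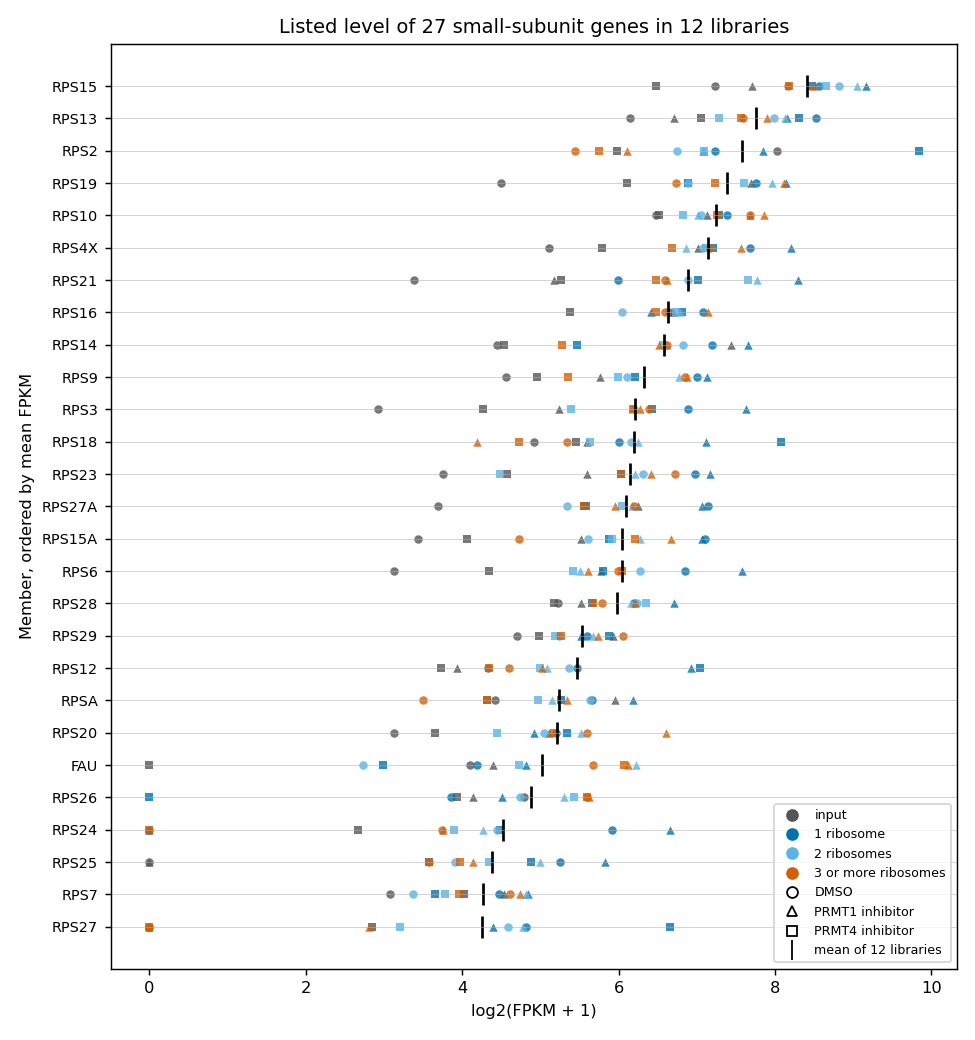
Listed level of each of the 27 genes on the log2(FPKM + 1) scale, ordered by mean FPKM; colour gives the fraction, marker shape the treatment and the black bar the mean of 12 libraries. Inputs (grey) lie to the left for most genes, and RPS27, RPS25, RPS24, RPS26 and FAU have points at 0.

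Summed over the 27 genes, FPKM was lowest in the input and highest with 1 ribosome for every treatment. The sums for input and for 1, 2 and 3 or more ribosomes were 1011, 3073, 2271 and 2108 with DMSO. With the PRMT1 inhibitor they were 1860, 4155, 2825 and 2661, and with the PRMT4 inhibitor 952, 3419, 2197 and 1835. The fraction with 1 ribosome thus held 1.46, 1.56 and 1.86 times the FPKM of the fraction with 3 or more. The last ratio leans on RPS2, which alone was listed at 916 FPKM with 1 ribosome and the PRMT4 inhibitor. With DMSO and the PRMT1 inhibitor RPS2 was listed there at 149 and 229. The median over the 27 members with 1 ribosome was 114, 133 and 64.2 FPKM in the same order of treatments. With 3 or more ribosomes that median was 62.6, 72.8 and 49.8 FPKM. The PRMT1 inhibitor series was the highest in all 4 kinds of library, while as a share of all summed FPKM its input, at 0.484%, lay below the DMSO input at 0.501%. Among the ribosome fractions, 17, 20 and 15 of the 27 members were highest with 1 ribosome in the DMSO, PRMT1 inhibitor and PRMT4 inhibitor gradients, where 38.2, 40.2 and 36.5% of all tested genes were.

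**Figure D2:**
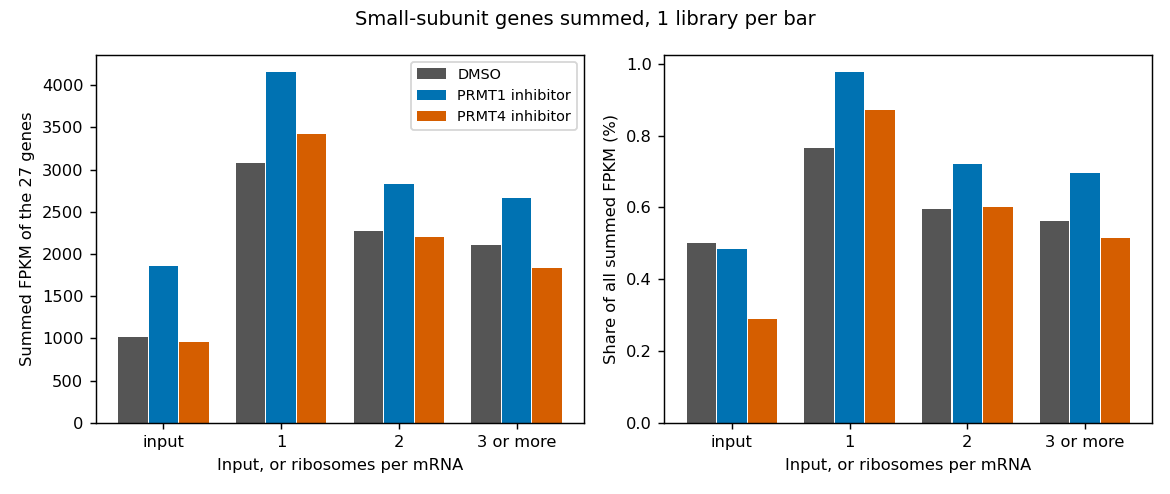
Summed FPKM of the 27 genes (left) and their share of all summed FPKM in percent (right) in the input and by ribosomes per mRNA, 1 library per bar. The fraction with 1 ribosome is highest for each treatment, and the PRMT1 inhibitor has the highest bars except for the share in the input.

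The second question was where along the gradient the genes sat. Gradient position is the log2(FPKM + 1) with 3 or more ribosomes minus the mean of that with 1 and with 2, centred on the median of all tested genes in the same gradient, so a value below 0 means lighter fractions than the typical gene. The pseudocount of 1 understates differences of low genes. The 3 gradients served as 3 values per gene (n = 3), tested with limma. They are different treatments and not replicates of a condition, so the spread between them includes any treatment effect and, since nothing says they came from separate cultures, may in part be technical.

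The 27 members lay slightly toward light fractions. Their median gradient position was -0.24, and it was -0.31, -0.17 and -0.22 in the DMSO, PRMT1 inhibitor and PRMT4 inhibitor gradients (SD 0.07). Of the 27, 19 lay below 0, as did 51.1% of all tested genes. In 3 of 3 gradients 11 members lay below 0 (21.6% of all genes) and 5 above (21.2%). limma called 3 members lower at an adjusted p under 0.05 and 0 higher, where it called 2.69% of all tested genes lower and 1.65% higher. Leaving out the DMSO, the PRMT1 inhibitor or the PRMT4 inhibitor gradient each left 0 members called, as did limma without a mean-variance trend.

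The 3 members called lower were RPS2 (ENSG00000140988.15_3), RPS27 (ENSG00000177954.11_2) and RPS18 (ENSG00000231500.6_2). The values of RPS2, given above, yield gradient positions of -1.48, -1.25 and -2.64 and a mean of -1.79 (SE 0.28, n = 3 gradients, limma adjusted p = 0.0182). Without the DMSO, PRMT1 inhibitor or PRMT4 inhibitor gradient its adjusted p was 0.0913, 0.118 and 0.0517, with means of -1.94, -2.06 and -1.36. RPS2 is the gene that also stood lower with 3 or more than with 2 ribosomes when these were compared alone (-1.19, limma adjusted p = 0.0432, n = 3), where 0.542% of all tested genes were called lower and 0.224% higher. That call was lost without pairing by gradient (adjusted p = 0.0840) and without the DMSO, PRMT1 inhibitor or PRMT4 inhibitor gradient (adjusted p of 0.316, 0.202 and 0.441), at means of -1.14, -1.29 and -1.15.

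RPS27 had the lowest gradient position, at -4.64, -1.66 and -4.85, mean -3.72 (SE 0.70, limma adjusted p = 0.0324, n = 3). It rests on values at 0 with 3 or more ribosomes in 2 of 3 gradients and on about 4.31 estimated fragments per library, so its size depends on the pseudocount: it was -5.98 with a pseudocount of 0.1 (adjusted p = 0.0797) and -2.20 with 5. Leaving out 1 gradient gave adjusted p of 0.178 without DMSO, 0.0959 without the PRMT1 inhibitor and 0.147 without the PRMT4 inhibitor. RPS18, a head protein at the bridge to the large subunit, was listed at 29.1, 63.3, 70.6 and 39.7 FPKM with DMSO. It was listed at 47.5, 138, 75.3 and 17.3 with the PRMT1 inhibitor and at 43.01, 269, 48.5 and 25.6 with the PRMT4 inhibitor. In each gradient its fraction with 3 or more ribosomes was the lowest of the 3. Its gradient position was -0.67, -2.38 and -2.04, mean -1.70 (SE 0.35, limma adjusted p = 0.0424, n = 3), and its adjusted p was 0.0501, 0.231 and 0.172 without the DMSO, PRMT1 inhibitor and PRMT4 inhibitor gradients.

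Other members lay low without passing the test. RPS24 had a mean gradient position of -2.36 (limma adjusted p = 0.0794, n = 3) and RPS12, a protein of the head's beak, -1.07 (limma adjusted p = 0.0902, n = 3). RPS12 was listed at 43.2, 40.2 and 23.3 FPKM with 1, 2 and 3 or more ribosomes with DMSO, at 121, 33.0 and 31.6 with the PRMT1 inhibitor and at 130, 31.0 and 19.3 with the PRMT4 inhibitor. Its 1-ribosome values were the highest of every gradient, and its inputs stood at 19.1, 14.2 and 12.2. RPSA, related to a laminin receptor, and RPS25 lay at -1.004 and -0.89, below 0 in 3 of 3 gradients, as did RPS14, RPS15, RPS13 and RPS28 at -0.49, -0.43, -0.29 and -0.24.

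At the other end stood FAU and RPS26. FAU encodes the 40S protein eS30 fused to a ubiquitin-like domain. It was listed at 16.2, 17.3, 5.65 and 49.9 FPKM for the DMSO input and with 1, 2 and 3 or more ribosomes, at 20.1, 27.2, 73.7 and 68.3 with the PRMT1 inhibitor and at 0, 6.95, 25.6 and 66.0 with the PRMT4 inhibitor. FAU was higher with 3 or more ribosomes than with 1 in every gradient, and its mean gradient position was 1.76 (SE 0.41, limma adjusted p = 0.0600, n = 3). RPS26, which lies by the mRNA exit channel, was listed at 26.8, 13.5, 25.6 and 47.6 FPKM with DMSO, at 16.6, 21.9, 38.6 and 48.4 with the PRMT1 inhibitor and at 14.3, 0, 42.2 and 47.3 with the PRMT4 inhibitor. RPS26 was lowest with 1 ribosome and highest with 3 or more in each gradient, with a mean gradient position of 1.72 (SE 0.44, limma adjusted p = 0.0799, n = 3). With a minimum mean level of 5 FPKM in place of 1, both FAU and RPS26 were called higher, at adjusted p of 0.0319 and 0.0437.

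RPS20, a head protein, was the next highest at 0.81 (limma adjusted p = 0.209, n = 3). It was listed at 7.72, 35.7, 32.0 and 47.6 FPKM with DMSO, at 33.6, 29.2, 45.0 and 96.9 with the PRMT1 inhibitor and at 11.6, 39.4, 20.8 and 35.1 with the PRMT4 inhibitor. The fraction with 3 or more ribosomes was the highest of 2 gradients and not of the PRMT4 inhibitor's. RPS10, a head protein known to carry methylated arginines, was listed at 88.1, 166, 132 and 204 FPKM, at 140, 203, 129 and 231 and at 90.6, 155, 112 and 153 in the same order. Its gradient position was above 0 in 3 of 3 gradients, at 0.48 (SE 0.17, limma adjusted p = 0.169, n = 3). RPS27A, whose product is a fusion of ubiquitin to a 40S protein, lay near the middle at -0.23, with 11.9, 141, 39.5 and 72.6 FPKM with DMSO, 75.04, 133, 70.9 and 61.0 with the PRMT1 inhibitor and 47.2, 46.2, 65.2 and 46.1 with the PRMT4 inhibitor. The 2 ubiquitin-type fusions of the small subunit, FAU and RPS27A, thus lay on different sides of 0.

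**Figure D3:**
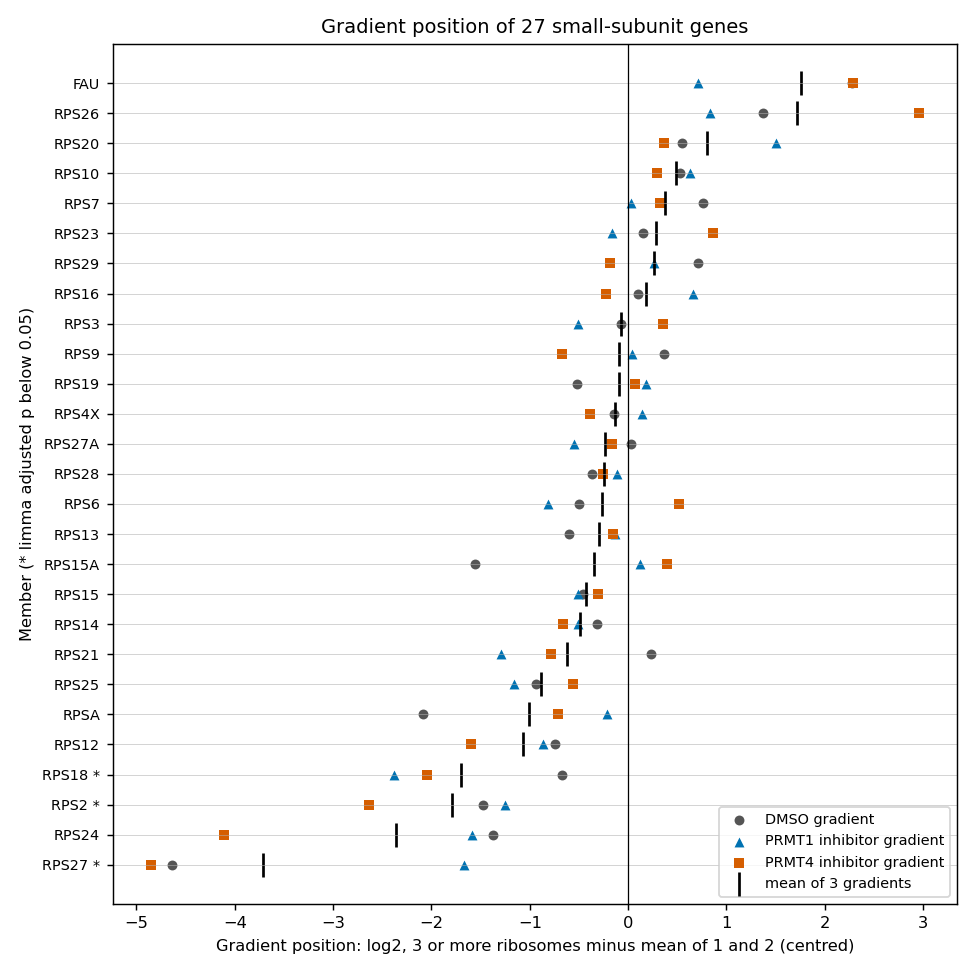
Gradient position of each of the 27 genes in the 3 gradients, with the mean as a black bar and an asterisk where the limma adjusted p was below 0.05. RPS27, RPS2 and RPS18 lie at the light end in all 3 gradients, and FAU and RPS26 at the heavy end.

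Against 1 ribosome alone the members lay further down. The median of 3 or more ribosomes minus 1 was -0.51, with 20 of 27 members below 0 (52.4% of all tested genes) and 13 below 0 in 3 of 3 gradients (22.2%). limma called 0 members in either direction, while 1.82% of all tested genes were called lower and 0.757% higher. An unadjusted limma p under 0.05 was reached by 10 of the 27 members and by 2134 of the 10706 tested genes. Against 2 ribosomes alone the median was -0.04. The members' median thus lay further from 0 against the fraction with 1 ribosome than against that with 2.

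The position of the group was set beside 4 other gene lists. The 47 large-subunit proteins had a median gradient position of -0.27, with 3 called lower and 0 higher by limma, and the 18 other TOP mRNAs a median of -0.53, with 1 called in each direction. The 47 factors that assemble the 40S subunit had a median of 0.20, with 2 called higher and 0 lower, and the 27 proteins of the initiation complex that loads onto it 0.57, with 1 called higher. The median over all tested genes was -0.02. The lists are not all separate, since the other TOP mRNAs and the initiation factors share genes, among them the lowest of both, at -2.30. Differences between these lists were not tested.

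**Figure D4:**
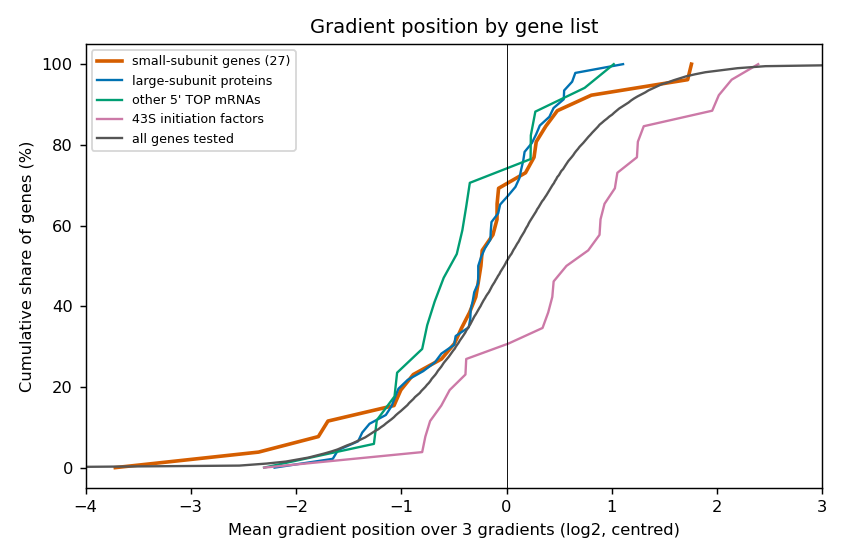
Cumulative share of genes in percent against mean gradient position over 3 gradients for the 27 small-subunit genes, 3 other lists and all 10706 tested genes. The small-subunit and large-subunit curves run close together, left of all genes through the middle of the range (medians -0.24, -0.27 and -0.02), and the initiation factors lie to the right (0.57).

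Within the group, the positions of single members ran from -3.72 to 1.76. Medians of classes vary less than single members by their making, so the spreads of classes and of members were not compared. The 12 head proteins had a median of -0.16 and the 15 proteins of the body and platform -0.29. The 18 members with a tract at the start had a median of -0.28 and the 6 without 0.07, with RPS15 at -0.43 and RPS26 at 1.72 as the extremes of those 6. Of the members with a tract 14 of 18 lay below 0, and of those without 3 of 6. FAU has a tract of 9 bases and the highest position of all, so the 2 classes overlapped. The 6 members with snoRNA genes in their introns (RPSA, RPS2, RPS3, RPS12, RPS13, RPS20) had a median of -0.65 and the 21 others -0.23, and the 18 members with no exon opposite them -0.32. As a description across the 27 genes, which are not independent replicates, position had a Pearson correlation of 0.10 with log2 mean FPKM and of 0.19 with transcript length. These classes were compared with no test.

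The third question was how the ribosome fractions compared with the input. Ribosome association is the mean log2(FPKM + 1) of the 3 ribosome fractions minus the input, centred on all tested genes, again with 3 values per gene. The members' median was 1.03, and 1.29, 0.78 and 0.85 for the 3 treatments in the order DMSO, PRMT1 inhibitor, PRMT4 inhibitor. Of the 27 members, 24 lay above 0 (51.9% of all tested genes), 19 above 0 in 3 of 3 treatments (13.3%) and 0 below 0 in 3 of 3 (14.4%). limma called 0 of the 10706 genes, hence 0% and 0 members, and 13 members and 699 genes had an unadjusted p under 0.05. Each value rests on 1 input library, and the DMSO input stood apart in summed FPKM and in genes at 0; without DMSO the member median was 0.86. The median over the 47 large-subunit proteins was 0.82, over the other TOP mRNAs 0.41, over the initiation factors 0.40 and over the assembly factors 0.03. Taken per member and centred on all tested genes, the shift from DMSO had a median of -0.01 with the PRMT1 inhibitor (13 above 0, 14 below). With the PRMT4 inhibitor it was -0.34 (12 above 0, 15 below). Over the 22 members at 0 in no library these medians were -0.21 and -0.25. The shift was not tested.

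RPS25, RPS24 and RPS27 had the highest mean ribosome association, but their DMSO and PRMT1 inhibitor inputs were listed at 0, so no value is given for them. Among members never at 0, RPS21, a small protein of the body, was highest at 2.11 (SE 0.40, limma adjusted p = 0.480, n = 3). It was listed at 9.43, 62.5, 117 and 95.8 FPKM with DMSO, at 35.2, 313, 218 and 97.5 with the PRMT1 inhibitor and at 37.4, 129, 201.2 and 87.9 with the PRMT4 inhibitor. All 9 ribosome libraries exceeded all 3 inputs. RPS3, at the mRNA entry channel, followed at 1.93 (SE 0.46, limma adjusted p = 0.619, n = 3). RPS2 (-0.34), RPSA (-0.10) and RPS26 (-0.09) were the 3 members below 0.

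The fourth comparison was of the PRMT1 inhibitor with DMSO. With 1 library per group there is no test, and counts are of members at least 1.5-fold apart on the centred log2(FPKM + 1) scale, set beside the same share of all tested genes. The median difference over the members was above 0 in each kind of library. In the input the median difference was 0.52, with 12 members at least 1.5-fold higher and 7 lower (32.6 and 34.7% of all genes). Of the 7, RPS24, RPS25 and RPS27 were listed at 0 in both inputs and RPS16 at 99.2 and 103 FPKM, so their values below 0 come from the centring. Among the 22 members at 0 in no library 12 were higher and 3 lower, with a median of 0.82. With 1 ribosome it was 0.50, with 10 higher and 1 lower (31.3 and 26.1%), with 2 ribosomes 0.23, with 9 and 1 (25.5 and 25.2%), and with 3 or more 0.31, with 6 and 1 (26.4 and 26%). Averaged over the 3 ribosome fractions the median was 0.28, 25 of 27 members were above 0 (51.9% of all genes), 8 were at least 1.5-fold higher (20.5%) and 0 lower (18.3%). The input medians of the large-subunit proteins, other TOP mRNAs, initiation factors and assembly factors were 0.52, 0.60, 0.42 and 0.40. Averaged over the ribosome fractions these lists had medians of 0.10, -0.01, 0.01 and 0.0002. Differences between the lists were not tested. Centring removed a shift of 0.68 between the inputs, where the DMSO input had the lowest summed FPKM and the most genes at 0, and of less than 0.01 in each ribosome fraction. FPKM is scaled to library size, so neither the number of cells nor the RNA per cell is measured, and a difference in either cannot be seen here.

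Members above 0 in all 3 ribosome fractions numbered 9 (13.4% of all genes), namely RPS2, RPS7, RPS9, RPS15, RPS19, RPS21, RPS25, RPS26 and FAU, and 0 were below 0 in all 3 (11.1%). In all 4 libraries RPS7, RPS9, RPS19 and RPS21 were above 0, which is 4 of 27 (7.44%), and 0 were below (5.7%). RPS19 differed most in the input, at 2.52 on the log2 scale (21.6 FPKM with DMSO and 205 with the inhibitor). The estimated fragments give this difference a 95% interval of 1.39 to 4.14, which covers counting error only and compares these libraries, not the conditions. RPS14, a platform protein, was listed at 20.8 and 172 FPKM in the 2 inputs, a difference of 2.31 with an interval that also lies above 0. RPS14 then stood at 146, 112 and 97.7 FPKM on DMSO ribosomes and 200, 96.9 and 90.2 in those of the inhibitor, so its input difference had no counterpart of that size there. RPS6, the target of S6 kinases, was listed at 7.74 and 53.9 FPKM in the inputs, a difference of 1.97 (0.37 to 3.95), and lay at -0.14 in the mean of the ribosome fractions. RPS2 was lowest in the input at -1.63 (-2.12 to -1.14), followed by RPS26 at -1.34 and RPS12 at -1.08.

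In the mean of the ribosome fractions FAU (1.52), RPS21 (1.07) and RPS19 (0.94) were highest, and RPS6 (-0.14), RPS23 (-0.07) and RPS29 (0.01) lowest. RPS21 with 1 ribosome, at 62.5 and 313 FPKM, differed by 2.30 (1.47 to 3.33). RPS23, which sits by the decoding site, was listed at 125, 78.6 and 105 FPKM with DMSO and 143, 73.1 and 84.1 with the inhibitor in the 3 ribosome fractions, with 12.5 and 47.3 in the inputs. The levels of RPS23 on ribosomes nearly coincided. RPS29 likewise read 47.3, 36.6 and 65.5 FPKM and 44.9, 49.9 and 52.4, with inputs of 25.1 and 59.9, and its 4 PRMT4 inhibitor libraries read 30.6, 57.6, 35.5 and 37.4. RPS6 read 114, 76.5 and 62.6 FPKM and 190, 44.6 and 48.0, higher with 1 ribosome and lower with 2 and with 3 or more, and its 4 PRMT4 inhibitor libraries read 19.3, 54.6, 41.8 and 65.0.

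The PRMT1 inhibitor's gradient position minus that of DMSO had a member median of -0.23, with 5 members at least 1.5-fold higher and 5 lower (30.6 and 31.9% of all genes), and the 18 members with no opposite exon had a median of 0.12. The extremes were RPS27 (2.93), RPSA (1.82) and RPS15A (1.64) toward heavier fractions and RPS18 (-1.75), FAU (-1.61) and RPS21 (-1.57) toward lighter ones. RPSA was listed at 20.3, 49.6, 48.9 and 10.3 FPKM with DMSO, at 61.0, 71.9, 34.4 and 39.4 with the PRMT1 inhibitor and at 19.0, 37.4, 30.4 and 19.0 with the PRMT4 inhibitor, so its DMSO value with 3 or more ribosomes was the low one. RPS15A, a body protein, was listed at 9.79, 137, 47.7 and 25.5, at 44.7, 133, 76.2 and 101 and at 15.7, 57.6, 59.4 and 72.8.

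The fifth comparison, of the PRMT4 inhibitor with DMSO, used the same DMSO libraries. In it the members lay slightly lower on ribosomes. The median difference was -0.02 in the input, with 8 members at least 1.5-fold higher and 8 lower (35.9 and 26.2% of all genes), or 5 and 6 of the 22 members at 0 in no library. With 1 ribosome it was -0.46, with 5 higher and 11 lower (29.3 and 28.3%), with 2 ribosomes -0.12, with 6 and 7 (28.3 and 23.5%), and with 3 or more -0.12, with 2 and 8 (28.2 and 26.5%). Averaged over the ribosome fractions the median was -0.19, 17 of 27 members were below 0 (46.7% of all genes), 1 was at least 1.5-fold higher and 6 lower (21.5 and 19.4%). The same average had medians of -0.17 for the large-subunit proteins and -0.42 for the other TOP mRNAs. It was -0.29 for the initiation factors and -0.16 for the assembly factors. Below 0 in all 3 ribosome fractions were 7 members (11.8%), RPS3, RPS9, RPS10, RPS13, RPS14, RPS23 and RPS24, and 1 was above 0 in all 3 (13.8%), RPS2. In all 4 libraries RPS9, RPS10 and RPS14 were below 0, 3 of 27 (6.32%), and 0 were above (8.23%).

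RPS2 had both the highest difference with 1 ribosome and, after FAU, the lowest in the input. Its input was listed at 260 FPKM with DMSO and 62.2 with the inhibitor, a difference of -2.61 (-3.26 to -2.01), and its fraction with 1 ribosome at 149 and 916, a difference of 2.61 (2.25 to 3.02). With 2 ribosomes and with 3 or more it differed by 0.35 (-0.20 to 0.88) and 0.31 (-0.60 to 1.23). RPS18 and RPS12 also stood higher with 1 ribosome, at 2.07 (1.39 to 2.91) and 1.57 (0.63 to 2.56), and lay below 0 with 2 and with 3 or more. In the mean of the ribosome fractions RPS2 (1.09), RPS21 (0.56) and FAU (0.40) were highest, and RPS24 (-1.91), RPS23 (-1.16) and RPS14 (-1.11) lowest.

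RPS14 with the PRMT4 inhibitor was listed at 22.2, 43.4, 94.0 and 37.8 FPKM for the input and with 1, 2 and 3 or more ribosomes, below its DMSO values on ribosomes given above. The differences were -1.73 (-2.83 to -0.84) with 1 ribosome and -1.35 (-2.52 to -0.43) with 3 or more. RPS23 was listed at 22.8, 64.2, 21.3 and 64.5. RPS9, beside the mRNA entry channel, was listed at 22.5, 127, 68.1 and 114 FPKM with DMSO, at 53.1, 139, 108 and 116 with the PRMT1 inhibitor and at 30.03, 72.9, 62.8 and 39.8 with the PRMT4 inhibitor. Its ribosome fractions were the lowest of the 3 treatments with the PRMT4 inhibitor and the highest with the PRMT1 inhibitor. In the input, FAU, listed at 0 with this inhibitor, and RPS16, a head protein at 99.2 and 40.5 FPKM (-1.84, -2.98 to -0.78), were low beside RPS2. RPS25, RPS27 and RPS24 were high there, where the DMSO input was listed at 0 for all 3. RPS16 was listed at 135, 64.8 and 95.5 FPKM on DMSO ribosomes, at 103, 84.0, 109 and 140 in the 4 PRMT1 inhibitor libraries and at 111, 106 and 87.8 in the PRMT4 inhibitor ribosome fractions.

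The PRMT4 inhibitor's gradient position minus that of DMSO had a member median of -0.21, with 5 at least 1.5-fold higher and 7 lower (30.7 and 31.6% of all genes). RPS15A (1.93), RPS26 (1.56) and RPSA (1.35) lay highest and RPS24 (-2.76), RPS18 (-1.39) and RPS2 (-1.18) lowest. The value of RPS24 rests on a listed 0 with 3 or more ribosomes and that of RPS26 on one with 1 ribosome. RPS18 lay among the 3 lowest for both inhibitors, which share the DMSO gradient.

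**Figure D5:**
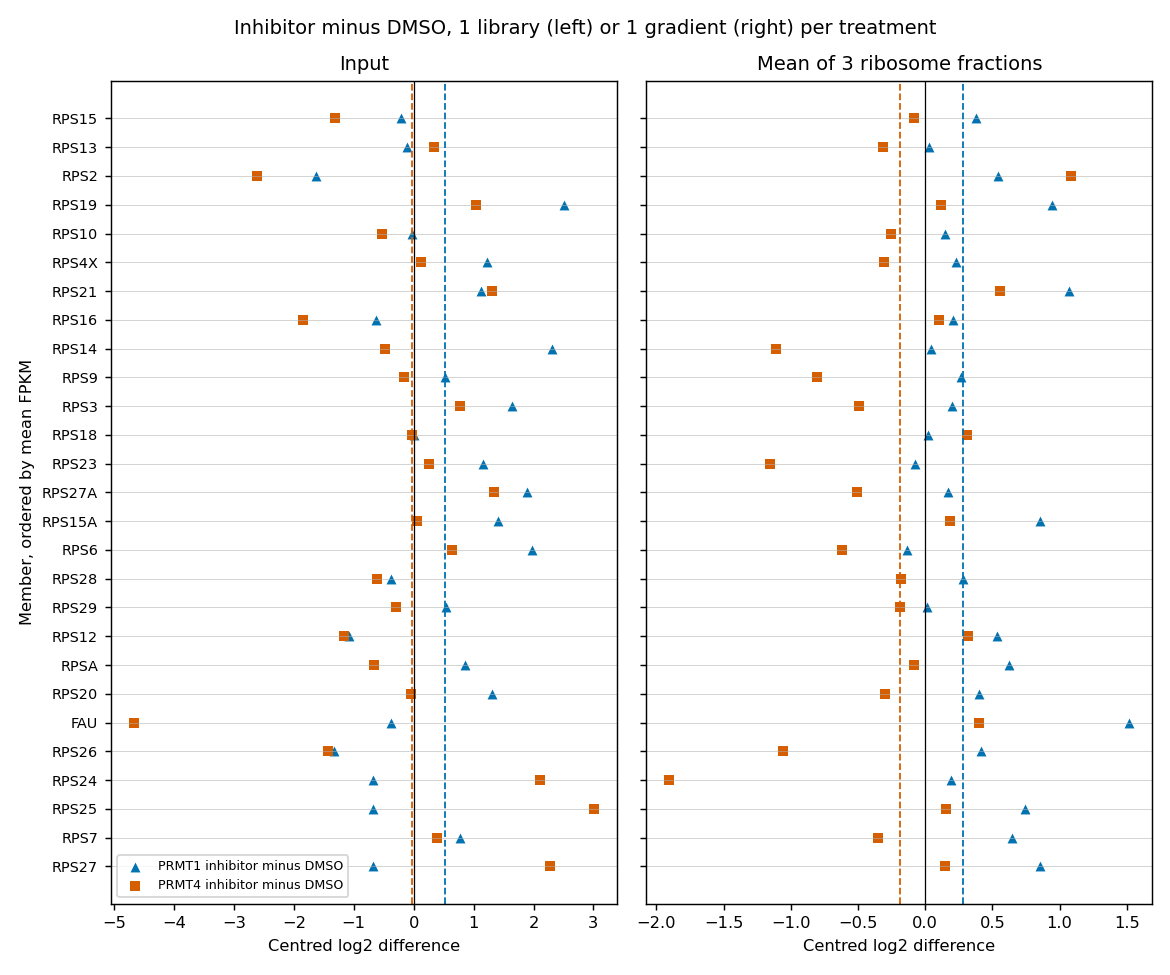
Inhibitor minus DMSO for each of the 27 genes on the centred log2(FPKM + 1) scale, in the input (left) and in the mean of the 3 ribosome fractions (right), with dashed lines at the medians of the 27. On ribosomes 25 of 27 genes lie above 0 for PRMT1 inhibition, and the median for PRMT4 inhibition is -0.19.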

How the data were processed

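RNA of 12 libraries (3 treatments, 4 kinds of library, 1 each) was analysed. The deposited values are FPKM per gene, made by the authors. Per the submitters' processing notes, the tools were cutadapt 1.18, STAR 2.5.3a and RSEM, on GRCh37; the sources used here give no annotation release or strand setting. The columns R1, R2 and R3 were matched by number to the sample titles, which name 1, 2 and 3 ribosomes. The third was read as 3 or more, words that the titles do not hold. Every gradient value rests on this matching. Of 15534 rows, 15299 were matched to a symbol. GENCODE 29 (GRCh38) served for names, transcript lengths and opposite-strand partners.

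Values were log2(FPKM + 1) for 10706 genes with a mean of at least 1 FPKM. Each difference was centred on its median over these genes. Fractions of one treatment come from the same gradient, so gradient tests used the 3 within-gradient differences with limma 3.58.1 (R 4.3.3, mean-variance trend) and Benjamini-Hochberg adjustment over all tested genes. The pairing comes from the labels. Inhibitor comparisons have 1 library per group and no test. Counts per library were estimated from the smallest FPKM steps, and 95% intervals from them cover counting error only.

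The members and lists were chosen with earlier results of these data known, and the start-tract, intron and opposite-strand classes too. Values in every library are printed for the 4 highest and 4 lowest members by level, the 3 highest and 3 lowest by gradient position and by each inhibitor difference, and for RPS2, RPS10, RPS27A and FAU, with some further members chosen after their values were seen. Alternatives were pseudocounts of 0.1 and 5, no minimum or a minimum of 5 FPKM, no centring, upper-quartile scaling, limma without trend, no pairing, leaving out each gradient and leaving out members with an opposite-strand exon. Leaving out members with a listed 0 was added after seeing the data.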

Additional observations from a re-analysis of the deposited data

Results flagged for a closer look

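Over the 27 members, the median inhibitor minus DMSO was above 0 in all 4 PRMT1 inhibitor libraries (0.52, 0.50, 0.23 and 0.31 on the centred log2 scale for the input and 1, 2 and 3 or more ribosomes) and below 0 in all 4 PRMT4 inhibitor libraries (-0.02, -0.46, -0.12 and -0.12). The means of these medians differed by 0.572. The PRMT4 inhibitor input median was 0.38 with no minimum level and 0.55 without centring, so its sign depends on the processing. The difference between the inhibitors was not tested, since each has 1 library of a kind, and both are set against the same DMSO libraries.

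RPS9, a protein beside the mRNA entry channel, was the 1 member that lay above 0 in all 4 PRMT1 inhibitor libraries and below 0 in all 4 PRMT4 inhibitor libraries. Over all tested genes 7.44% met the first condition and 6.32% the second, and the share that met both was not counted. RPS9 was picked out by this pattern in the same data. Averaged over the 4 libraries the 2 differences of RPS9 lay 0.977 apart on the log2 scale. Its PRMT1 inhibitor differences were 0.52, 0.12, 0.66 and 0.03 and its PRMT4 inhibitor differences -0.17, -0.80, -0.12 and -1.50. This was not tested either, and the counting intervals of 6 of these 8 differences include 0.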

How the results depend on the processing

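The median gradient position of the members (-0.24) was below 0 under all 13 alternatives, at -0.33 with no minimum level and without centring, -0.15 with upper-quartile scaling, -0.32 for members with no opposite exon and -0.29 to -0.15 on leaving out 1 gradient. The counts of calls depended on the fit. Genes called higher (177) and lower (288) numbered 0 and 0 with no minimum or without the trend, and 0 to 39 and 0 to 75 on leaving out 1 gradient; genes called higher were 111 with a pseudocount of 0.1 and 293 with a minimum of 5 FPKM. Members called lower (3) were 1 with a pseudocount of 0.1, 0 with no minimum, 0 without the trend and 0 on leaving out any 1 gradient. Members called higher (0) were 1 with a pseudocount of 5 and 2 with a minimum of 5 FPKM. Without pairing by gradient (no block), the median was -0.22, and 180 genes were called higher, 261 lower and 3 members lower. Unpaired, genes called higher with 3 or more against 1 ribosome went from 81 to 210, and against 2 ribosomes genes called higher and lower went from 24 and 58 to 8 and 19, with 0 members in place of 1.

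The median of 3 or more against 1 ribosome (-0.51) was -0.26 with upper-quartile scaling, and that against 2 ribosomes (-0.04) ran from -0.14 to 0.09. Ribosome association (1.03) was 1.35 without centring. The PRMT1 inhibitor input median (0.52) was 0.995 with no minimum, 1.20 without centring and 0.82 for members above 0 in all libraries, its ribosome-fraction median (0.28) 0.41 and its shift in position (-0.23) 0.12 for members with no opposite exon. The PRMT4 inhibitor input median (-0.02) was 0.38 with no minimum and 0.55 without centring. The causes were not tested, and leaving out a gradient changes the estimates as well as the degrees of freedom. Depth limits most members: at about 24.7 estimated fragments per member and library, single differences carry wide counting intervals, and there is no replicate to set them against.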

Other observations

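Set directly against each other, a comparison chosen after the data were seen and with no test, the PRMT1 inhibitor libraries lay above the PRMT4 inhibitor libraries for most members. The median difference was 0.91 in the input, 1.001 with 1 ribosome, 0.36 with 2 and 0.48 with 3 or more on the centred log2 scale. Members at least 1.5-fold higher with the PRMT1 inhibitor numbered 17, 18, 10 and 12, against 36.8, 31.1, 24.1 and 26.7% of all tested genes, and members at least 1.5-fold lower numbered 3, 3, 0 and 0, against 33, 27.2, 28.2 and 27.8%. The DMSO libraries do not enter these values. RPS2, at 229 and 916 FPKM with 1 ribosome, is 1 of the 3 members lower there with the PRMT1 inhibitor.

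The genes whose profile over the 12 libraries was most like the mean profile of the members were CYB5B (Pearson r = 0.91), RPL26 (0.91), PPP1CC (0.90), HPCAL1 (0.89) and ANKMY1 (0.89), of which RPL26 is a protein of the large ribosomal subunit. These values describe 12 libraries that share treatments and fractions. The members' own median r was 0.68, from -0.14 for RPS26 to 0.89 for RPS9, and each member is part of the mean. The median was 0.46 for the 47 large-subunit proteins and -0.03 for all tested genes.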
